A study of Homo sapiens with 32 samples.

Results

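HEC265 and Ishikawa-S33Y are human endometrial cancer cell lines that the labels both class as CTNNB1-mutated, CTNNB1 being the gene of beta-catenin. Their RNA was compared on vehicle alone, which describes the lines without either drug of the study. The comparison rests on 4 of the 32 sequencing libraries, 2 of HEC265 and 2 of Ishikawa-S33Y, chosen by the line and treatment named in their labels and by no measured value. All 4 cultures had been left for 16 h to attach and then held for 24 h in 0.1% DMSO, and 500 ng of RNA went into each library. Ishikawa-S33Y is by its name a derivative of Ishikawa, which the labels class as wild type for CTNNB1, that carries the S33Y substitution in beta-catenin. Which CTNNB1 change HEC265 carries, how Ishikawa-S33Y was made and whether it is 1 clone are not given in the sources used here. The labels place serum between 5 and 20% over all lines without giving it per line, so medium and line cannot be told apart. Each line was plated in duplicate. The p-values use the spread between duplicates pooled over all 16 groups of the 32 libraries (4 lines and 4 treatments). Those libraries include 1 of 2991041 reads (Ishikawa-S33Y) and 1 of 1607038 reads (SNGM), both on the 2 drugs together. A gene with close duplicates on vehicle can therefore fail the test through scatter in other groups. The p-values do not measure the spread between patients or independently derived lines.

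Beta-catenin is the transcriptional partner of the TCF and LEF factors in canonical Wnt signalling. Without a Wnt ligand, a destruction complex built on APC and AXIN marks beta-catenin for degradation, and substitutions at its amino-terminal serines, of which S33Y is one, let the protein escape it. Stabilised beta-catenin switches on target genes that include the pathway's own inhibitors, such as AXIN2, NKD1, RNF43, ZNRF3, NOTUM and DKK1, so the RNA of these feedback genes is widely used as a readout of the pathway. In the endometrium, CTNNB1 substitutions are found mainly in endometrioid carcinomas, a class of tumour that usually keeps estrogen and progesterone receptors.

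The 2 libraries of HEC265 held 22465861 and 25900215 counted reads and those of Ishikawa-S33Y 20290762 and 23852360. Levels are given as CPM, reads per 1000000 counted in a library. CPM is not divided by gene length, so it compares 1 gene between libraries and not 1 gene with another. Among 8528 genes of at least 10 CPM, the root mean square difference between the 2 replicates was 0.0808 on the log2 scale in HEC265 and 0.104 in Ishikawa-S33Y. The libraries were epithelial in both lines: all 10 epithelial markers on the list (among them EPCAM, CDH1, KRT8, KRT18 and PAX8) were at or above 1 CPM in each line, and they summed to 2992 and 2994 CPM in HEC265 and 3650.1 and 3576 CPM in Ishikawa-S33Y. The 10 immune markers summed to 9.77 to 10.1 CPM in HEC265 and 5.58 to 5.62 CPM in Ishikawa-S33Y, and the 6 endothelial markers to 1.85 to 2.63 and 8.01 to 11 CPM. The 10 stroma markers summed to 9.57 and 8.57 CPM in HEC265 but to 1173 and 1144 CPM in Ishikawa-S33Y, nearly all of it COL1A1. The mitochondrial genes took 6.43 and 6.84% of the reads in HEC265 and 13.2 and 13.6% in Ishikawa-S33Y, and 81 ribosomal protein genes took 2.65 and 2.74% against 3.41 and 3.6%.

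The lines differed across most of the genes tested, and the widest gaps were in genes whose RNA was near 0 in HEC265. Of 17011 genes tested with limma on log2(CPM + 1), 9874 passed an adjusted p of 0.05, which is 58.0% of those tested. In HEC265, 4531 genes were higher (26.6%) and 5343 lower (31.4%) than in Ishikawa-S33Y. A difference of 2-fold or more was held by 1670 of the higher genes (9.82% of those tested) and 3008 of the lower genes (17.7%). The balance of the calls moved with the scaling and with the filter. As deposited, 45.9% of them were higher in HEC265. The share was 56.9% after each library was re-centred on its median and 58.1% after quantile normalization. With the scaling as deposited and a stricter filter (mean log2 of at least 2), 4134 were higher and 3422 lower, or 54.7% higher. The balance moved the other way, to 39.3%, with CPM computed without mitochondrial genes, PLCG2 and RIMBP3C. The median difference over all tested genes stood at -0.075 as deposited. It was 0.11 with median re-centring, 0.16 with quantile normalization, 0.070 with the stricter filter and -0.16 without mitochondrial genes, PLCG2 and RIMBP3C. Small differences are to be read against shifts of that size. Fewer cells expressing a gene and less RNA per cell cannot be told apart in these bulk samples. Log2 differences are between means of log2(CPM + 1), which understates the change of low genes. In simulated data of the same design, 200 of 17011 genes were changed, with 1 dispersion of 0.02 for all genes. Recovered were 10% of genes changed 1.5-fold, 62% of those changed 2-fold and 98% of those changed 4-fold. Far more genes were called in the real data, and the dispersion was not fitted to them. These shares are therefore not the sensitivity of the comparison made here.

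Genes near 0 in 1 line were mostly near 0 in HEC265. Below 0.5 CPM in HEC265 and at 10 CPM or more in Ishikawa-S33Y stood 528 genes, against 36 with the lines exchanged. With no read in either HEC265 library and at least 1 CPM in Ishikawa-S33Y there were 434 genes, against 15 the other way. Depth differed little between the lines, and no read over a pair of libraries allows up to 0.062 CPM in HEC265 and 0.068 CPM in Ishikawa-S33Y, taking 3 reads as the limit (counting error only). In paclitaxel-treated libraries, which share no sample with these, 522 genes met the first rule and 36 the reverse, of which 485 and 33 were genes that met it on vehicle. Of the 528 genes low in HEC265, 367 were at 10 CPM or more in parental Ishikawa and 116 in SNGM, the remaining line of the study, where 235 were below 0.5 CPM.

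**Figure D1:**
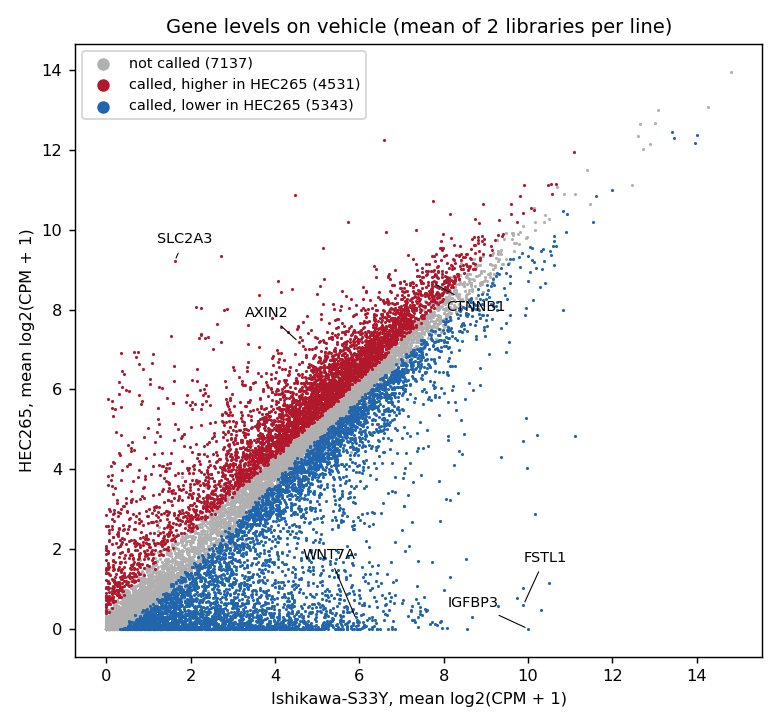
Mean level of each tested gene on vehicle in Ishikawa-S33Y (horizontal axis) and HEC265 (vertical axis), both as log2(CPM + 1), with each point 1 gene of 17011 and the mean taken over 2 libraries. Called genes higher in HEC265 are red, called genes lower in HEC265 blue and the others grey. The row of blue points along the bottom of the plot holds genes such as IGFBP3 and FSTL1, which were at or near 0 in HEC265, and the left edge holds far fewer red points.

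The 12 genes lowest in HEC265 against Ishikawa-S33Y were led by IGFBP3 and SLC34A2. IGFBP3, a binding protein that holds insulin-like growth factors outside the cell, had no read in either HEC265 library and 1044 and 1019 CPM in Ishikawa-S33Y, a level at least 16629-fold lower in HEC265. SLC34A2, a sodium-phosphate transporter, was at 0.356 and 0.425 CPM in HEC265 and 1282 and 1240.0 CPM in Ishikawa-S33Y. The glycoprotein genes SPON1 (1.29 and 1.12 against 1434 and 1461 CPM) and FSTL1 (0.445 and 0.579 against 957 and 940.1 CPM) showed the same pattern. The 12 lowest log2 differences, which ran from -10.01 (SE 0.17) for IGFBP3 to -7.75 (SE 0.23) for FBLN5, also took in the fibrillin FBN2, the intermediate filament genes VIM and INA, the collagen crosslinking enzyme LOX, the histone HIST1H4J, the junction-associated AJAP1 and the collagen chain COL6A2. None of the 12 reached 2 CPM in a HEC265 library, and each was above 200 CPM in both Ishikawa-S33Y libraries. HIST1H4J is 1 of many near-identical histone H4 genes, so its reads could be shared out among copies and its zero is uncertain.

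The 12 highest differences were led by SLC2A3, the gene of the high-affinity glucose transporter GLUT3, at 584 and 598 CPM in HEC265 and 2.32 and 1.84 CPM in Ishikawa-S33Y. That was 284 times the level (log2 difference 7.59, SE 0.16, adjusted p 1.2e-19). VCAN, a large matrix proteoglycan, was at 1858 and 1857 against 21 and 21.3 CPM, and CXCL8, the neutrophil chemokine interleukin-8, at 126 and 118 against 0.493 and 0.671 CPM. The others were HHLA1, CDCA7L, the cytokine IL32, the kallikrein KLK10, PARP14, the claudin CLDN2, the protease inhibitor SERPINA1, UGT1A6 and the kindlin FERMT1, with log2 differences from 5.87 to 6.62. By contrast with the low side, 11 of these 12 genes held more than 10 reads in Ishikawa-S33Y, and UGT1A6, with 10 reads there, shares exons with the other UGT1A genes and is uncertain. By size in CPM the leading gene was LRRK1, a kinase gene, at 5045 and 4716 CPM in HEC265 and 103 and 87.2 CPM in Ishikawa-S33Y, followed by VCAN, FTH1, TXNRD1 and TUBB. On the other side the 5 largest CPM differences all belonged to mitochondrial genes (MT-CO1, MT-ND1, MT-ND4, MT-ND5 and MT-ND2), of which MT-ND1, MT-ND5 and MT-ND2 were called, the last pair of calls being lost without most single libraries.

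Genes without any read in Ishikawa-S33Y reached only low levels in HEC265. The 6 highest were the forkhead gene FOXC2 (5.92 and 6.56 CPM), the interferon regulatory factor IRF8 (3.07 and 2.86 CPM), the cancer-testis gene MAGEB2 (2.67 and 2.66 CPM) and 3 pseudogenes or unnamed transcripts. FOXC2 was at least 91.8-fold and MAGEB2 at least 39.2-fold higher in HEC265. Without any read in HEC265, the highest in Ishikawa-S33Y after IGFBP3 and HIST1H4J were EYA4 (115 and 112 CPM), PRIMA1 (113 and 104 CPM), KCTD12 (97.6 and 105 CPM) and SLC25A46 (91.3 and 87.5 CPM). SLC25A46, a mitochondrial outer membrane carrier, also had reads in the other lines, at 134 and 150.5 CPM in Ishikawa and 66.2 and 59 CPM in SNGM.

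The promoters of 4 genes on which the description turns follow, as the 250 bases before the gene's start in RefSeq (GRCh38.p14), read 5′ to 3′ on the gene's strand. SP5 and DKK1 are Wnt target genes that went opposite ways, and capitals mark CTTTGAA, or the same letters with AT, TA or TT in place of the final AA, which are forms of the TCF/LEF motif, on either strand (overlaps allowed).
SP5 (chr2:170715087-170715336, plus strand): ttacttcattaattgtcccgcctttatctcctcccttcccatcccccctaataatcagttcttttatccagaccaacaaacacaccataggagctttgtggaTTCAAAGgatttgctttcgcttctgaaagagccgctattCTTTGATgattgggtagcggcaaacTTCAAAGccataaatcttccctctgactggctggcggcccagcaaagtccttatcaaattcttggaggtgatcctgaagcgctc
DKK1 (chr10:52314031-52314280, plus strand): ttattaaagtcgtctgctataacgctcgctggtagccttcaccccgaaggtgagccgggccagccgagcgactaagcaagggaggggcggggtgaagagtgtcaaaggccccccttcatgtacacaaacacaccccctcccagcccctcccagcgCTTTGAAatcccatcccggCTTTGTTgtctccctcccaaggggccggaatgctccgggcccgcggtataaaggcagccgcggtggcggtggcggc
WNT7A and IGFBP3 are shown because their RNA was near or at 0 in HEC265, and capitals mark CG pairs, the sites of DNA methylation in promoters.
WNT7A (chr3:13880072-13880321, minus strand): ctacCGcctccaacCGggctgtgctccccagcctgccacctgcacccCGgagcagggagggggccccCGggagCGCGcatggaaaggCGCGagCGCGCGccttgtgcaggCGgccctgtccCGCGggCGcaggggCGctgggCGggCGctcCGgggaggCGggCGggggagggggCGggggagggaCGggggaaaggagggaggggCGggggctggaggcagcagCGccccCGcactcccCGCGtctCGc
IGFBP3 (chr7:45921273-45921522, minus strand): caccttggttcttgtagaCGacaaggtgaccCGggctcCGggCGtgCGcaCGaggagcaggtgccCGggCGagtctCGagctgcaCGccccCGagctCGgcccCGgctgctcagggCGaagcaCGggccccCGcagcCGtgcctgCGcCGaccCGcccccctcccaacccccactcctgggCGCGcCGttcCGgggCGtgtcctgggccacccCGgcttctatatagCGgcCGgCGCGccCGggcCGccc
The SP5 window held 3 matches and the DKK1 window 2. Over 35116 RefSeq windows of this length, 12% held at least 1 match, 1.21% at least 2 and 0.122% at least 3. Of the 24 Wnt targets listed, 11 had a window in the table and 3 of those held a match (SP5, DKK1 and TCF7). These 11 genes had 17 windows and each was counted by its window with most matches. The shares over all windows are per window, so the 2 are not directly comparable. The WNT7A window held 29 CG pairs and the IGFBP3 window 32, numbers reached or passed by 14.1 and 9.52% of all windows. A match is a description of the letters, and neither factor binding nor methylation was measured.

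Among genes listed as Wnt targets, the feedback inhibitors AXIN2, NKD1, RNF43, ZNRF3 and NOTUM and the factors TCF7 and LEF1 were higher in HEC265. DKK1, SFRP1, LGR5 and CCND1, also on the list, were lower. Of 24 listed genes, 22 were tested, 12 were higher and 9 lower in HEC265 (over all tested genes 26.6 and 31.4%), with a median log2 difference of 1.03 against -0.075 over all tested genes. AXIN2, a scaffold of the destruction complex and a widely used target, stood at 144 and 145 CPM in HEC265 and 23.7 and 21.7 CPM in Ishikawa-S33Y, 6.37 times as high (log2 difference 2.62, SE 0.18, adjusted p 1.9e-11). Both HEC265 libraries lay far above both Ishikawa-S33Y libraries, and AXIN2 overlaps no other RefSeq gene. NKD1, which restrains Dishevelled, was at 103 and 103 against 24.7 and 23.3 CPM, and the ligases RNF43 and ZNRF3, which remove Wnt receptors from the cell surface, at 57.2 and 59 against 15.4 and 14.7 and 185 and 183 against 43.6 and 41.5 CPM. The groups did not overlap for any of them, AXIN2 included. With 2 against 2 libraries and 58.0% of all tested genes called, such separation is common and adds little to the test. NOTUM, which inactivates Wnt ligands by removing their lipid, was 5.62 times as high, BMP4 6.47 times, TCF7 4.65 times and LEF1 4.0 times. SP5 reached 5.07 and 5.6 CPM in HEC265 and 2.32 and 1.68 CPM in Ishikawa-S33Y.

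The listed genes on the other side included secreted antagonists. DKK1, which blocks the LRP5 and LRP6 co-receptors, had no read in HEC265 and 7.54 and 6.71 CPM in Ishikawa-S33Y, and SFRP1, which sequesters Wnt ligands, had none and 16.8 and 17.1 CPM. At the limit of 3 reads these were at least 115-fold and 273-fold lower in HEC265. LGR5, a stem cell receptor for R-spondins, was also at 0 in HEC265 and at 1.53 and 1.13 CPM in Ishikawa-S33Y, close to the lower end of what these libraries resolve. CCND1, the gene of cyclin D1, was expressed in both lines, at 378 and 372 CPM in HEC265 and 1275 and 1211 CPM in Ishikawa-S33Y (log2 difference -1.72, SE 0.22). FGF9 (12 times higher in Ishikawa-S33Y) and the adhesion receptor CD44 (2.15 times) were lower in HEC265 too. In parental Ishikawa, with wild-type CTNNB1 and 350 ng of RNA per library, AXIN2 was at 8.14 and 7.52 CPM and DKK1 at 7.65 and 7.29 CPM, and in CTNNB1-mutated SNGM they were at 31.7 and 28.8 and 20.4 and 15.9 CPM.

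**Figure D2:**
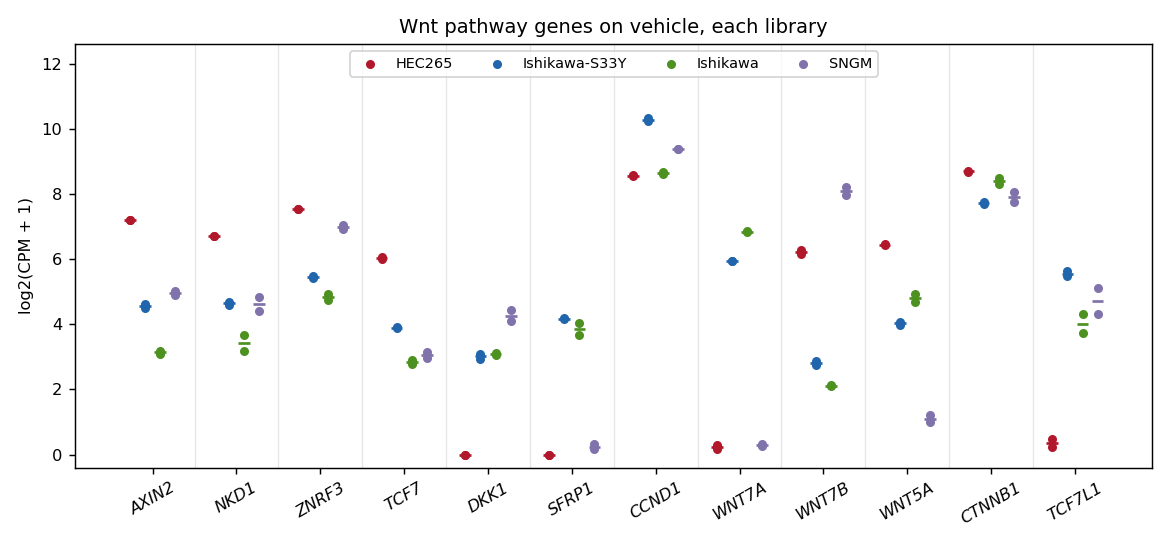
Listed Wnt target, ligand and beta-catenin genes on vehicle in 4 endometrial cancer lines, as log2(CPM + 1) on the vertical axis. Each point is 1 library (2 per line) and the short bar is the mean of the 2. AXIN2, NKD1, ZNRF3 and TCF7 sat higher in HEC265 than in Ishikawa-S33Y, and DKK1, SFRP1, WNT7A and TCF7L1 sat at or near 0 in HEC265.

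Wnt ligands differed gene by gene between the lines. Of 29 tested ligand and receptor genes, 6 were higher and 14 lower in HEC265 (69% called, against 58.0% over all genes). WNT7A, a ligand of the uterine epithelium, was at 0.223 and 0.116 CPM in HEC265 and 59.8 and 60.5 CPM in Ishikawa-S33Y, 356 times higher in the latter (log2 difference -5.71, SE 0.16, adjusted p 4.0e-18). WNT2B (2.05 and 1.58 against 31.9 and 36.5 CPM) and WNT3 (1.78 and 1.62 against 13.9 and 14.5 CPM) were lower in HEC265 as well. WNT7B and WNT5A were higher in HEC265, the former at 76.4 and 70.3 against 5.67 and 6.33 CPM and the latter, a ligand of non-canonical signalling, at 85.2 and 86.7 against 15.8 and 14.8 CPM. ROR1, a receptor of WNT5A, was at 96.3 and 98.8 against 14.3 and 14.7 CPM. Among Frizzled receptors, FZD2, FZD4, FZD7 and FZD9 were called lower, with log2 differences from -1.30 to -0.60. The co-receptor LRP6 was lower (log2 difference -0.82), and LRP5 did not pass (0.53, adjusted p 0.176).

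CTNNB1 RNA itself was about double in HEC265, at 409 and 414 CPM against 214 and 207 CPM (1.96 times, adjusted p 3.4e-07). These counts do not separate mutated from wild-type transcripts, nor do they measure the protein. Of 22 tested genes of beta-catenin, its destruction complex and its nuclear partners, 7 were higher and 5 lower, a share of 54.5% called that is close to the 58.0% over all genes, and a balance that turned to 6 and 7 under quantile normalization. The destruction complex scaffolds APC and AXIN1 and its kinase gene GSK3B did not pass the test (log2 differences -0.59, 0.20 and 0.13, 95% intervals -1.22 to 0.032, -0.34 to 0.74 and -0.17 to 0.43). TCF7L1, a member of the TCF family that mostly represses targets, was at 0.178 and 0.386 CPM in HEC265 and 48.3 and 43.1 CPM in Ishikawa-S33Y, 162 times higher in the latter. TCF7L2, another TCF factor, was higher in HEC265 (2.13 times), as was the co-activator BCL9 (2.46 times), whereas the co-repressor TLE2 (7.07 times) and the Dishevelled gene DVL3 (3.29 times) were higher in Ishikawa-S33Y.

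The sex steroid receptor genes ESR1 and PGR were at or near 0 in HEC265. The estrogen receptor gene ESR1 was at 0.089 and 0.0772 CPM in HEC265 and 45.4 and 40.8 CPM in Ishikawa-S33Y, 519 times higher in the latter on only 4 HEC265 reads (adjusted p 1.4e-17). The progesterone receptor gene PGR had no read in HEC265 and 1.33 and 1.01 CPM in Ishikawa-S33Y, low in both. Of 20 tested receptors and estrogen targets, 5 were higher and 13 lower (90% called, against 58.0% over all genes), among the latter the estrogen-related receptor ESRRG (0.134 and 0.347 against 37 and 33.3 CPM), the glucocorticoid receptor NR3C1 (29.2 and 29.5 against 61.7 and 68 CPM) and the mineralocorticoid receptor NR3C2 (2.36 and 2.39 against 15.4 and 16.1 CPM). Estrogen targets did not all follow: GREB1 was lower in HEC265 (5.07 and 5.41 against 9.76 and 10.3 CPM, a call lost when any 1 of the 4 libraries was left out), while PDZK1 (10.1 and 11.1 against 1.53 and 2.1 CPM) and KIAA1324 (14.6 and 17.1 against 1.63 and 1.47 CPM) were higher. The COUP-TF orphan receptors went opposite ways, with NR2F2 at 166 and 157 CPM in HEC265 against 1.92 and 1.89 CPM and NR2F1 at 0.712 and 0.965 against 31 and 29.9 CPM.

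Several transcription factors of the lineage list were near 0 or low in HEC265. MECOM, an EVI1-type zinc finger factor, was at 0.089 and 0.154 CPM in HEC265 and 241 and 239.7 CPM in Ishikawa-S33Y, and the homeobox gene EMX2, needed for the urogenital tract, at 0.267 and 0.27 against 101 and 99.9 CPM. MEIS1, a HOX cofactor, was at 8.86 and 7.8 against 284 and 287 CPM. PAX8 and SOX17, factors that pathologists and developmental biologists use to mark this lineage, remained expressed but were lower in HEC265, PAX8 at 183 and 174 against 514 and 472 CPM and SOX17 at 49 and 55.4 against 221 and 197 CPM. FOXJ1, the master factor of ciliated cells, was at 14.8 and 13 against 139 and 125 CPM. On the other side stood the pioneer factors FOXA1 (64.9 and 62.8 against 16.3 and 14.9 CPM) and FOXA2 (5.25 and 5.56 against 1.23 and 0.922 CPM), and GATA6 (14.5 and 14.9 against 0.789 and 0.629 CPM). Counted over the list, 7 of 27 tested factors were higher and 13 lower in HEC265 (over all genes 26.6% and 31.4%), which became 11 and 12 with median re-centring.

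HOX genes, which give tissues their position along the body axis, differed cluster by cluster. Of 35 tested, 6 were higher and 23 lower in HEC265 (82.9% called, against 58.0% over all genes). Their median log2 difference was -0.97, or -0.21 with 8 higher and 16 lower under quantile normalization, and -2.29 by limma voom on the recovered reads. All 9 HOXD genes had no read in HEC265, while in Ishikawa-S33Y HOXD8 to HOXD11 and HOXD13 lay between 6.21 CPM (HOXD10) and 9.12 CPM (HOXD8). In the HOXB cluster, HOXB4 and HOXB5 also had no read in HEC265, against 10.3 and 9.81 and 6.95 and 7.88 CPM, and HOXB6 had 1 read against 21.1 and 19.8 CPM. HOXB7 and HOXB9, in the same cluster, were expressed in both lines, HOXB7 at 19.1 and 19.9 against 21.4 and 20.3 CPM without passing the test and HOXB9 at 15.8 and 16.9 against 7.49 and 5.28 CPM. The HOXA cluster was split within itself: HOXA7 was at 0 and 0.116 against 55.9 and 53 CPM, while its neighbour HOXA9 was at 63 and 66.3 against 1.63 and 1.38 CPM. HOXA10 and HOXA11, the HOX genes of uterine and cervical identity, were both higher in HEC265, 2.49 and 3.02 times. HOX genes overlap antisense and read-through transcripts, and counting by strand is not stated, so reads of partners on the other strand cannot be told apart.

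The epithelial adhesion genes CDH1, TJP1 and DSC2 were higher in HEC265, while the mesenchymal genes VIM, LOX, FN1, MMP2 and MMP14 were at or near 0. CDH1, the gene of E-cadherin, was at 565 and 574 CPM in HEC265 and 264 and 277 CPM in Ishikawa-S33Y (2.1 times). TJP1 of tight junctions (2.92 times), the desmosomal DSC2 (3.04 times) and the epithelial splicing factor ESRP1 (3.0 times) were higher too, and EPCAM (257 and 257 against 232 and 225 CPM) did not pass the test. Of 30 junction and polarity genes, 11 were higher and 6 lower (56.7% called, about the 58.0% over all genes), or 7 and 8 with CPM computed without mitochondrial genes, PLCG2 and RIMBP3C. CLDN16 (0.712 and 1.35 against 39.3 and 34.7 CPM) and CLDN3 (13.3 and 13.3 against 53.7 and 47.8 CPM), which code for claudins of tight junctions, were among the lower ones. RAB25, a trafficking factor of epithelial cells, was at 47.7 and 48.1 against 5.17 and 3.82 CPM. Keratins differed by gene: KRT7 (248 and 259 against 5.32 and 6.58 CPM) and the hair keratin KRT81 (65.9 and 66.4 against 0.246 and 0.335 CPM) were far higher in HEC265, KRT19 2.35 times higher, and KRT8 and KRT18 1.72 and 1.67 times lower. Of the 10 epithelial markers, 3 were higher and 6 lower in HEC265 (90% called, against 58.0% over all genes), with a median log2 difference of -0.50.

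Vimentin showed the widest gap of the mesenchymal list, with VIM at 0.935 and 1.16 CPM in HEC265 and 921 and 951 CPM in Ishikawa-S33Y (log2 difference -8.84, SE 0.16, adjusted p 8.5e-21). Of 21 tested genes, 15 were lower and 6 higher in HEC265 (over all genes 31.4% and 26.6%), with a median log2 difference of -2.64. FN1, the gene of fibronectin, was at 1.69 and 1.58 against 83.4 and 85.8 CPM, and the proteases MMP2 and MMP14 at 0 and 0 against 62 and 58.6 and 0.089 and 0.154 against 61.5 and 59.1 CPM. The transcription factors TWIST1 (0.0445 and 0.0772 against 10.6 and 9.64 CPM) and TWIST2 (0 and 0 against 7.59 and 7.17 CPM) were also lower, and SNAI1 was 8.79 times lower. Not all members went this way: AXL, a receptor tyrosine kinase, was 4.25 times higher in HEC265 and NT5E 3.64 times, and CDH2, the gene of N-cadherin, was at 235 and 238 against 140.0 and 149 CPM. SNAI2 was higher as well (4.1 and 4.17 against 1.48 and 1.22 CPM).

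Collagens were among the widest gaps of the matrix list. COL1A1 was at 6.32 and 6.33 CPM in HEC265 and 1158 and 1131 CPM in Ishikawa-S33Y, COL6A1 at 28 and 28.2 against 1203 and 1182 CPM and COL12A1 at 25.8 and 24.5 against 947 and 949.8 CPM. COL5A1, COL4A1 and the matrix glycoprotein TNC were 60.8, 30.9 and 25.7 times higher in Ishikawa-S33Y. Of 28 matrix genes, 16 were lower and 3 higher in HEC265 (67.9% called, against 58.0% over all genes). The higher ones included THBS1 (1619 and 1593 against 475 and 497 CPM) and HSPG2 (429 and 385 against 179.8 and 172 CPM). COL1A2, the partner chain of COL1A1 in type I collagen, was near 0 in both lines, at 0.846 and 0.463 and 1.72 and 0.88 CPM. The 10 stroma markers, of which 1 reached 1 CPM in HEC265 and 6 in Ishikawa-S33Y, summed to 9.57 and 8.57 CPM in HEC265 and 1173 and 1144 CPM in Ishikawa-S33Y, of which COL1A1 made up nearly the whole, and their part in the collagen result was not tested. Of the 7 that were tested, 5 were lower and 0 higher in HEC265 (71.4% called, against 58.0% over all genes), or 3 and 1 under quantile normalization. The defining stromal genes DCN (0.356 and 0.425 against 0.493 and 0.377 CPM), LUM (0 and 0 against 0 and 0.0838 CPM) and POSTN (0 and 0 against 0.0493 and 0.0838 CPM) were at or near 0 in all 4 libraries. The 6 smooth muscle markers, of which MYLK held most of the reads, summed to 83.5 to 91.3 CPM in HEC265 and 71.1 to 75.3 CPM in Ishikawa-S33Y. However, 4 of the 6 were lower and 0 higher in HEC265 (66.7% called, against 58.0% over all genes), or 3 and 2 under quantile normalization. In HEC265 2 of them reached 1 CPM, against 5 in Ishikawa-S33Y.

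**Figure D3:**
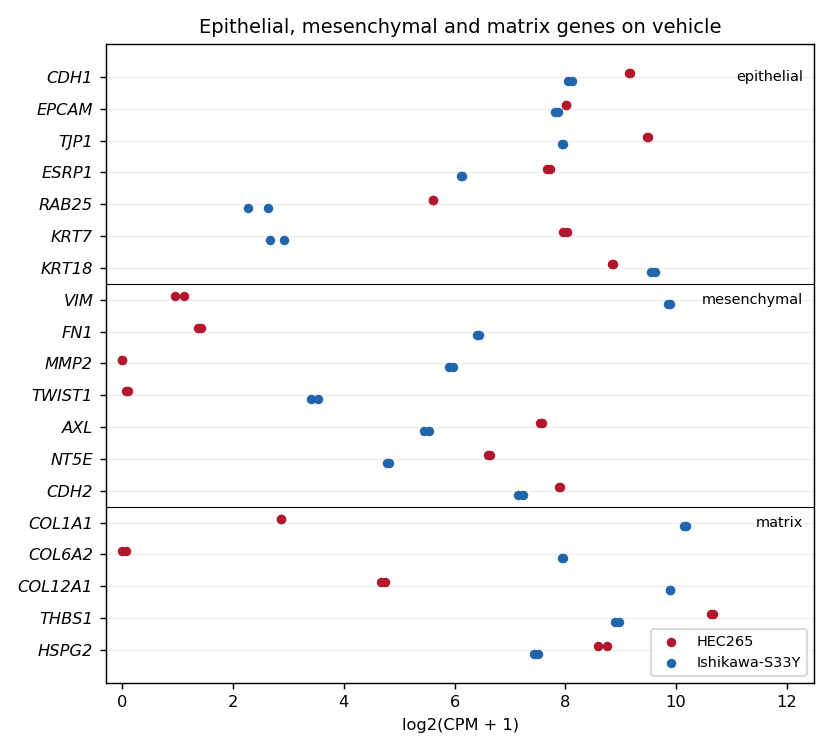
Epithelial, mesenchymal and matrix genes on vehicle in the 4 libraries of HEC265 and Ishikawa-S33Y, as log2(CPM + 1) on the horizontal axis. Each point is 1 library and each row 1 gene. The 2 libraries of a line lie close together. The epithelial genes shown lie near each other in the lines or higher in HEC265, apart from KRT18, which lies lower there. They are a selection that leaves out KRT8, PAX8 and CLDN3, which were lower in HEC265. Of the 10 epithelial markers listed, 3 were higher and 6 lower there. VIM, FN1, MMP2, TWIST1 and COL6A2 are near the left edge in HEC265 only.

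Genes of neurons and neuroendocrine cells were nearly all lower in HEC265. Of 18 tested genes of this list, 16 were lower and 1, MAP2, higher (236 and 231 against 80.7 and 79.2 CPM), a share of 94.4% called against 58.0% over all genes. The adhesion genes NCAM1 (0.0445 and 0 against 25.5 and 27.2 CPM), CNTN1 (0.267 and 0.0772 against 45.1 and 47.4 CPM) and NLGN1 (0 and 0 against 30.3 and 30.7 CPM) and the nitric oxide synthase gene NOS1 (0.89 and 0.695 against 65.8 and 59.8 CPM) were expressed in Ishikawa-S33Y and near 0 in HEC265. In parental Ishikawa NCAM1 was at 10.7 and 15.4 CPM, NLGN1 at 14.6 and 18.3 CPM and NOS1 at 0.987 and 1.54 CPM, and the level of CNTN1 there is not reported here. Imprinted genes, expressed from 1 parental copy, were lower in 8 and higher in 3 of 15 tested (over all genes 31.4% and 26.6%). The neighbouring genes PEG10 (0.223 and 0.0386 against 214 and 209.6 CPM) and SGCE (0 and 0.116 against 33.8 and 35.6 CPM), which share a promoter region, were both near 0 in HEC265.

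Growth factor receptors differed in both directions. Of 28 tested receptors and ligands, 12 were higher and 12 lower in HEC265 (85.7% called, against 58.0% over all genes). IGF1R, the receptor of the factors that IGFBP3 binds, was at 192 and 185 CPM in HEC265 against 23.1 and 22 CPM, MET, the hepatocyte growth factor receptor, at 839 and 835 against 241 and 246 CPM, and EGFR at 399 and 380.5 against 149.5 and 144 CPM. The EGFR ligand AREG followed at 16.3 and 16.8 against 0.542 and 0.377 CPM. ERBB4 (0.267 and 0.425 against 53.2 and 52 CPM), KIT (0.089 and 0.116 against 26.4 and 24.4 CPM) and the fibroblast growth factor FGF2 (0.445 and 0.695 against 31.7 and 31.4 CPM) were near 0 in HEC265 and expressed in Ishikawa-S33Y. PDGFA was 5.83 times and the ephrin receptor EPHA2 6.73 times higher in Ishikawa-S33Y.

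Genes often mutated in endometrial cancer differed in both directions. FGFR2, a fibroblast growth factor receptor, was 3.87 times higher in HEC265, and PIK3R1, the regulatory subunit of PI3-kinase, was 4.36 times and cyclin E1 (CCNE1) 4.11 times higher in Ishikawa-S33Y. PIK3CA and ARID1A did not pass the test, with log2 differences of -0.20 for PIK3CA (95% interval -0.52 to 0.12) and 0.58 for ARID1A (-0.093 to 1.24). Over the list, 9 of 26 genes were higher and 4 lower (50% called, below the 58.0% over all genes), which became 8 and 9 under quantile normalization. RNA level says nothing of whether these genes are mutated, and no variant was read here.

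Mismatch repair genes differed in both directions. MSH6, which binds mismatched bases, was 1.89 times higher in HEC265 and MSH3, which binds small loops, 3.14 times lower. PMS2, which nicks the strand during repair, did not pass the test (35.2 and 35.5 against 34.8 and 34.8 CPM).

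Of the p53 targets and cell cycle genes, more were higher than lower in HEC265. CDKN1A, the p53-induced inhibitor p21, was at 429 and 404 CPM in HEC265 and 17.1 and 14.6 CPM in Ishikawa-S33Y, 26.3 times as high (log2 difference 4.63, SE 0.13). Of 20 p53 targets tested, 14 were higher and 4 lower (90% called, against 58.0% over all genes), with a median log2 difference of 1.21. The death receptor gene FAS (8.83 times), GDF15 (6.5 times), MDM2 (2.13 times) and the sestrin SESN1 (3.1 times) were on the higher side, and TP53INP1 (3.13 times), BAX (1.47 times), RRM2B and SPATA18 on the lower side, the call of RRM2B being lost without any 1 library and that of SPATA18 under 2 of the scalings. In the cell cycle list, 17 of 28 were higher and 5 lower (78.6% called), or 12 and 6 under quantile normalization. The replication helicase genes MCM3 to MCM7 were 2.65 (MCM6) to 3.07 (MCM5) times and PCNA 3.63 times as high, whereas MKI67, a marker of cycling cells, did not pass the test (436 and 444 against 578 and 571 CPM). RB1, the retinoblastoma gene, was at 221 and 218 against 15.1 and 13.6 CPM, and CDKN2A, which codes for p16 and ARF, at 5.47 and 5.25 against 148 and 153 CPM.

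Antigen presentation genes split by gene. The classical class I gene HLA-B (0.089 and 0.116 against 52.8 and 61.7 CPM) was near 0 in HEC265, while HLA-C was at 73 and 72 against 95.2 and 95.2 CPM, a call that was lost without any 1 of the 4 libraries. Higher in HEC265 were the peptide transporters TAP1 (45.2 and 44.6 against 3.65 and 3.82 CPM) and TAP2 (74.7 and 71.5 against 3.55 and 3.35 CPM), tapasin (TAPBP, 4.54 times) and the class I transactivator NLRC5 (10.3 and 9.77 against 0.493 and 0.503 CPM). CD74, the class II invariant chain, was at 119 and 115 against 0.936 and 1.43 CPM. HLA genes are near-identical and polymorphic, so reads of 1 gene can be counted to another or lost against a reference, and their levels are uncertain. Of 19 genes tested, 10 were higher and 7 lower (89.5% called, against 58.0% over all genes).

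Interferon-stimulated genes did not move as a block. Of 25, 7 were higher, 6 lower and 12 not called (quantile normalization gave 17 higher and 5 lower), a share called of 52% against 58.0% over all genes. OAS3 (96.1 and 85.3 against 0.69 and 0.964 CPM), the RNA sensor IFIH1 (17.6 and 16.8 against 0.148 and 0.0838 CPM) and BST2 (38.8 and 35.6 against 1.53 and 1.17 CPM) were far higher in HEC265. OASL (0.312 and 0.232 against 9.12 and 10.9 CPM) and IFIT1 (2.72 and 1.62 against 11.5 and 13 CPM) were lower. Cancer-testis antigens were split by gene: MAGEA6 (0 and 0 against 43.8 and 39.9 CPM) and its near-identical copy MAGEA3 were at or near 0 in HEC265, whereas MAGEB2 and SPANXB1 were read only in HEC265 among these 4 libraries.

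Genes linked to the 2 drugs of the study, which were given to parallel cultures, are described here without either drug. The CDC-like kinase genes, whose products SM08502 inhibits, differed by small amounts: CLK1 and CLK2 did not pass the test (log2 differences -0.19 and -0.013, 95% intervals -0.49 to 0.097 and -0.26 to 0.24), CLK3 was lower in HEC265 (29 and 29.3 against 40.7 and 41.5 CPM) and CLK4 higher (11.3 and 11.5 against 8.13 and 7.55 CPM, a call lost without either HEC265 library or without the second Ishikawa-S33Y library). The related kinase DYRK1B was near 0 in HEC265 (0.712 and 0.927 against 39 and 34.4 CPM), and SRPK1, which also phosphorylates SR proteins, was 3.38 times as high. Of the 14 SR protein genes, the splicing factors these kinases act on, 11 were higher in HEC265, 2 lower and 1 not called (92.9% called, against 58.0% over all genes), but 1 of the higher genes, SRSF3, reached 2-fold (2.14 times). SRSF12 was lower (0.312 and 0.154 against 11.8 and 10.5 CPM). Under quantile normalization 7 were called higher and 2 lower.

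Paclitaxel binds beta-tubulin, and the tubulin genes differed by isotype. The main beta isotype TUBB was at 2244 and 2192 CPM in HEC265 and 939 and 988 CPM in Ishikawa-S33Y (2.3 times), and TUBB4B did not pass the test (857 and 884 against 782 and 798 CPM). TUBA1A (1.74 and 2.32 against 84.1 and 89.1 CPM), TUBB2B (0.178 and 0.347 against 21.2 and 24.7 CPM), TUBB4A (0 and 0.116 against 35.7 and 33 CPM) and TUBB6 (6.9 and 7.91 against 135 and 128 CPM) were lower in HEC265. Tubulin genes are close copies and have pseudogenes, so these values depend on how shared reads were assigned. Of 13 tested ABC transporter genes, 4 were higher and 8 lower in HEC265 (92.3% called, against 58.0% over all genes), or 4 and 6 under quantile normalization. ABCB1, the P-glycoprotein gene that exports taxanes, was lower (8.28 and 10.4 against 20.6 and 21.8 CPM, log2 difference -1.11, SE 0.33). Its call was lost without HEC265 replicate 1 and with a pseudocount of 0.1. The drug efflux pump genes ABCC2 (70.8 and 74.5 against 2.22 and 1.89 CPM) and ABCC4 (3.18 times) were higher.

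**Figure D4:**
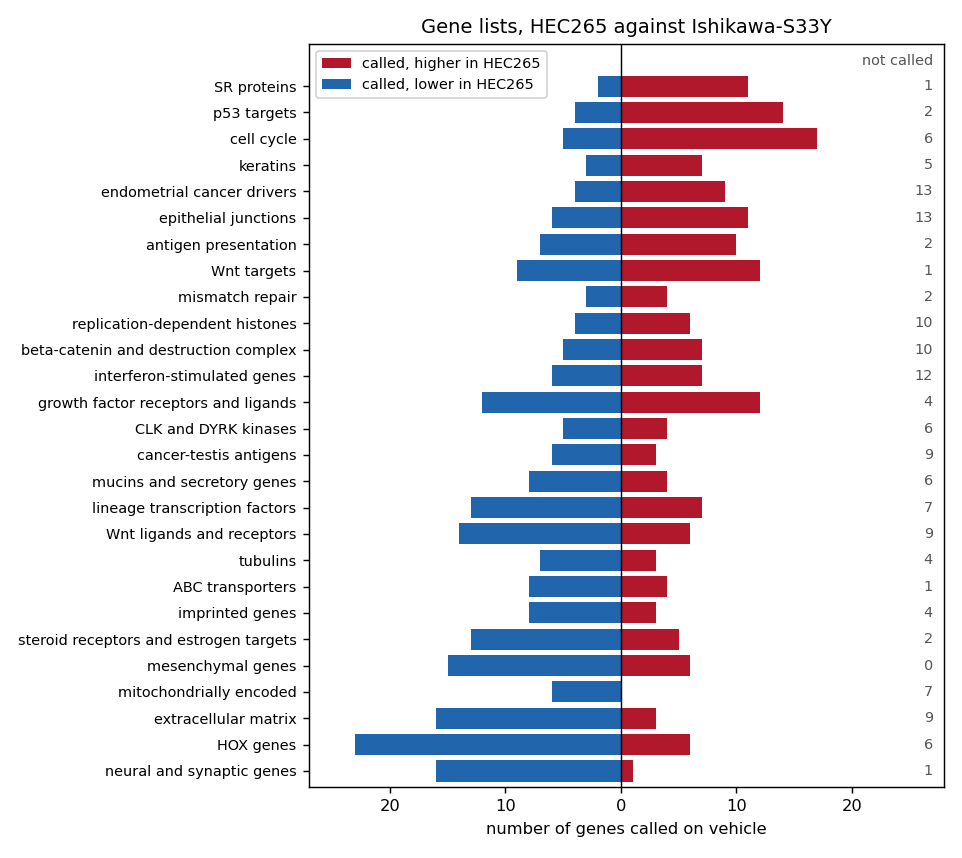
Number of tested genes of each list called higher in HEC265 (red, to the right), called lower (blue, to the left) and not called (grey, printed beside each row), on vehicle. The red bars are the longer for p53 targets, SR proteins and cell cycle genes, and the blue bars for HOX, mesenchymal, matrix and neural genes.

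The line difference was also measured in the treated libraries, which share no sample with the vehicle comparison, although the fit takes its spread from all 32 libraries. On paclitaxel (5.6 nM in HEC265 and 6 nM in Ishikawa-S33Y), 9815 genes were called between the lines (57.7%). Of the 9874 genes called on vehicle, 9111 were called in the same direction (92.3% of the vehicle calls and 92.8% of the paclitaxel calls) and 0 in the opposite one. Of those that differed 2-fold or more, 99% were called in the same direction. AXIN2 differed by 2.57 on the log2 scale on paclitaxel and by 2.62 on vehicle, WNT7A by -5.62 and -5.71, VIM by -8.79 and -8.84, and CDKN1A by 4.84 and 4.63. With limma 0 genes were called for a difference between the line gaps on paclitaxel and on vehicle (0.0% of 17011), with 87 genes at an unadjusted p under 0.05. By limma voom on the recovered reads, 0 were called and 271 were at an unadjusted p under 0.05. With only the 16 libraries of both lines, limma called 0, with 564 at that p. All these numbers are below the share of 0.05 that a test gives when no gene differs. The test was thus conservative, and 0 calls do not show that the line gaps were unchanged.

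On SM08502 most vehicle calls were made again, and the gap shifted for a smaller set of genes. The doses differed (SM08502 at 149 nM in HEC265 and 85 nM in Ishikawa-S33Y), so dose and line cannot be told apart. Between the lines 10125 genes were called (59.5%), of which 8138 had been called in the same direction on vehicle (82.4% of the vehicle calls) and 78 in the opposite one. The line gap itself differed between SM08502 and vehicle for 962 genes (5.66%), 439 of them towards higher values in HEC265 (2.58%) and 523 towards lower ones (3.07%). Leaving out any 1 of the 8 libraries compared, of either line on either treatment, gave 400 to 598. A fit of only the 16 libraries of both lines gave 4170, so the count depends strongly on the libraries used. In 213 of the 962 genes 1 line was below 1 CPM on both treatments, where log2(CPM + 1) shows mostly the change of the other line. In genes measurable in both, PDZK1 differed by 2.05 on vehicle and -0.0018 on SM08502 and KRT8 by -0.78 and 0.34. ABCB1 widened from -1.11 to -3.04. On both drugs together 10482 genes were called (61.6%), of which 7792 had the vehicle direction among vehicle calls. One Ishikawa-S33Y library of that group held only 2991041 reads, and without it 9576 genes were called.

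**Figure D5:**
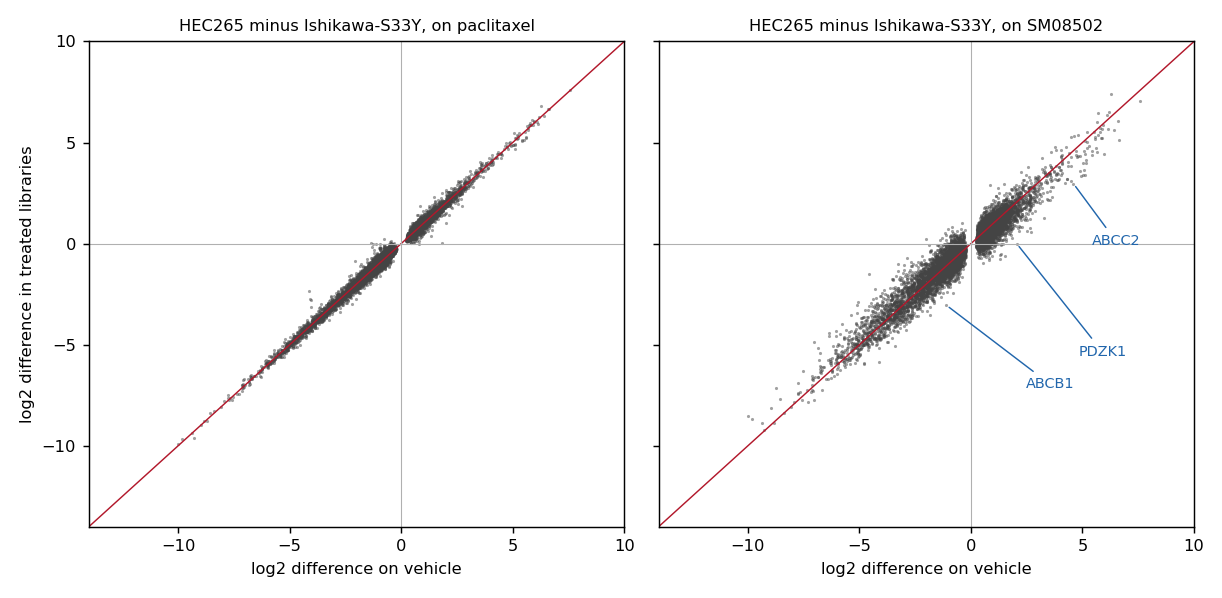
Log2 difference between HEC265 and Ishikawa-S33Y for each gene called on vehicle (horizontal axis) against the same difference in libraries on paclitaxel (left panel) and SM08502 (right panel), vertical axis. Each point is 1 of 9874 genes, and the line marks equal differences. Points lie closer to the line on paclitaxel, and ABCC2, PDZK1 and ABCB1, labelled on the right, lie away from it on SM08502.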

How the data were processed

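Each line was sequenced after rRNA depletion and library preparation with a kit for mRNA, per the labels' protocols. The deposited table holds log10(CPM + 1) for 35238 genes and 32 libraries; its log10 values were made by the authors, and bcl2fastq, STAR, kallisto and GRCh38 are named without roles per the submitters' processing notes. The annotation and strand setting are not given in the sources used here. Values were turned back to CPM, which summed to 1000000 per library, and whole reads were recovered for 100% of values (tolerance 0.02 read). Genes above 1 CPM in at least 2 libraries were tested on log2(CPM + 1) (pseudocount 1) with limma 3.58.1 in R 4.3.3: 16 group means over 32 libraries, empirical Bayes with an intensity trend, two-sided, Benjamini-Hochberg adjustment over 17011 genes, threshold 0.05. Replicates of a line were compared before use, and their counts differed by more than sampling noise (chi-square per degree of freedom 2.38 in HEC265 and 4.28 in Ishikawa-S33Y). The method was tested on simulated data of the same design.

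Named genes were the 12 highest and 12 lowest log2 differences with a mean of at least 1 (log2), the 6 highest each way with 0 reads in the other line, the 5 largest CPM differences each way, and genes of 32 lists, some of which are not reported here. The members and lists were chosen with earlier results of these data known. A fold against 0 reads is a lower bound from 3 reads over a line's 2 libraries, and with such genes at their bound the list medians given were unchanged. Of the 218 genes named, 213 matched a RefSeq model and 129 of those overlap another gene, whose reads cannot be told apart where counting ignored strand. Other filters, scalings, pseudocounts, sample sets, a replicate block, limma voom on the recovered reads and leaving out each library were tried.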

Additional observations from a re-analysis of the deposited data

Results flagged for a closer look

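The line difference itself (HEC265 minus Ishikawa-S33Y) differed between SM08502 and vehicle for 962 of 17011 genes by the interaction term of limma (adjusted p under 0.05, 2 libraries per group). The values here are the log2 difference on SM08502 minus that on vehicle, so a positive value is a shift towards higher RNA in HEC265 relative to Ishikawa-S33Y. The doses differed between the lines, so line and dose cannot be told apart in any of them. In 213 of these genes 1 line was below 1 CPM on both treatments; those show mostly the change of the other line and are not listed, a limit set after the values were seen.

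Of 29 Wnt ligand and receptor genes, 1 shifted up and 3 down, the latter being WNT5A by -1.22, its receptor ROR1 by -0.76 and FZD2 by -0.82. The lineage factors SOX17, GATA6 and HOXA10 shifted by 0.88, -1.09 and -0.47, and the estrogen target PDZK1 by -2.06. Of 20 steroid receptors and estrogen targets, 1 shifted up and 1 down. Of 30 junction and polarity genes, 3 shifted up and 1 down, and of 15 keratins, 5 up and 2 down (over all tested genes 2.58% up and 3.07% down). Other lists differed: of 20 p53 targets 6 shifted up and 0 down, of 35 HOX genes 0 up and 4 down, and several lists held no such gene. RAB25 shifted by 1.08, KRT8 by 1.12, KRT18 by 0.76 and KRT19 by 0.82. Of 21 mesenchymal genes, 1 shifted up and 3 down, among the latter NT5E by -1.12 and CDH2 by -0.92.

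Of the p53 targets, CDKN1A shifted by 0.69, GDF15 by 1.24, SESN1 by 0.62, TP53INP1 by 0.77 and BAX by 0.60. The cyclin gene CCNE1 shifted by 0.89, but of 28 cell cycle genes 1 shifted up and 4 down. Over all tested genes the shares were 2.58% up and 3.07% down. The drug pumps ABCB1 and ABCC2 shifted by -1.93 and -1.63, the kinase CLK3 by 0.93, and the growth factor gene PDGFA by 1.45.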

How the results depend on the processing

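The count of genes called on vehicle stayed within 1.5 times of 9874 under every alternative run, from 7556 with the stricter filter, which tests fewer genes, and 8466 to 8519 without 1 library to 12905 with only the 4 vehicle libraries, and limma voom on the recovered reads called 10865. The counts on paclitaxel, SM08502 and the combination stayed within 1.5 times as well. For the paclitaxel interaction, 0 calls became 3 without a filter, 1 with a pseudocount of 0.1 and 1 with quantile normalization, and 0 to 1 without 1 library, the 1 arising without HEC265 on paclitaxel, replicate 2. For the SM08502 interaction, 962 calls became 4170 with only the 16 libraries of both lines and 400 to 598 without 1 of its 8 libraries. The replicate numbers are shared by both lines, but nothing in the labels pairs them; the deviations of same-numbered libraries correlated at 0.178 over 8528 genes. With the replicate block 9942 genes were called on vehicle, 9837 of them shared. No gene called on vehicle and named here changed sign under any alternative. The calls of GREB1, HLA-C, CLK4, RRM2B, MT-ND2 and MT-ND5 were lost without 3 or more of the single libraries, and that of ABCB1 without HEC265 replicate 1; FZD9 and SPATA18 lost theirs under quantile normalization. The genes that changed sign had not passed the test: with median re-centring CLK2 (0.17), DCN (0.14), HOXB7 (0.092), then with quantile normalization CLK2 (0.017), COL1A2 (0.40), DCN (0.64), EPCAM (-0.072), GSK3B (-0.11), PMS2 (-0.058), then with CPM without mitochondrial genes, PLCG2 and RIMBP3C PMS2 (-0.097), and without 1 library CLK2 (-0.037 to 0.010), DCN (-0.10 to 0.013). The cause was not tested. Depth limits genes near 0, where 3 reads over 2 libraries set the floor.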

Other observations

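Mucins and other secretory genes were lower in HEC265 for 8 and higher for 4 of 18 tested (66.7% called, against 58.0% over all genes), or 5 and 8 under quantile normalization. MUC16, which codes for the CA125 antigen, was at 74 and 63.7 CPM in HEC265 and 4.68 and 3.61 CPM in Ishikawa-S33Y, and SPP1, the gene of osteopontin, at 163 and 165 against 3.15 and 4.44 CPM. Both libraries of HEC265 lay above both of Ishikawa-S33Y for these genes, which is common with 2 libraries per line and 58.0% of all tested genes called. Of 20 replication-dependent histone genes, 6 were higher and 4 lower (50% called, below the 58.0% over all genes), or 4 and 5 with CPM without mitochondrial genes, PLCG2 and RIMBP3C, but near-identical copies can share reads, so their levels are uncertain.

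The share of genes called varied by chromosome. Over 15212 protein-coding genes placed by symbol in RefSeq (GRCh38.p14), 28.7% were called higher and 32.5% lower in HEC265. On chromosome 6 these shares were 44.5 and 20.7% of 805 genes, with a median log2 difference of 0.29. Chromosome 14 (16.2 and 47.1%, median -0.35) and chromosome 12 (17.2 and 44.5%, median -0.33) lay on the other side. In the paclitaxel libraries the medians were 0.32, -0.36 and -0.32 for chromosomes 6, 14 and 12. The chromosomes were picked after their values were seen, copy number was not measured, and these shares have no test.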
